A study of Mus musculus with 16 samples.

Results

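The lysosome degrades proteins, glycoproteins, sphingolipids, other lipids and nucleic acids with soluble acid hydrolases, and 44 genes of these enzymes and of the proteins that activate, modify or sort them were followed here in murine MPS I fibroblasts exposed to genistein (G) and kaempferol (K). The members were chosen by gene symbol, from general knowledge of the organelle and without the enzymes whose loss causes a mucopolysaccharidosis. Earlier results of these data were known at that point, so the shares of members that changed are no independent evidence. All 44 symbols had 1 transcript cluster (the set of probes that stands for a gene) among the 22206 annotated clusters of the Clariom S mouse array. By role they were 10 cysteine cathepsins and legumain, 6 aspartic and serine proteases, 7 glycosidases of glycoproteins and glycogen, 8 sphingolipid enzymes and their activators, 5 proteins of lipid, thioester and cholesterol handling, 3 phosphatases and nucleases and 5 proteins of enzyme modification and sorting.

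The cells were primary skin fibroblasts grown out of the tails of mice a few weeks old with MPS I, the deficiency of α-L-iduronidase, and every group, the DMSO controls included, carried this defect. The strain, the Idua allele and the number of mice behind the cultures could not be taken from the sources used here. The groups were 60 µM G, 120 µM G, 60 µM K, 120 µM K, a 60 µM and a 120 µM 1:1 mixture of G and K (30 and 60 µM of each compound), and the vehicle controls 0.05% DMSO and 0.1% DMSO, each for 24 h. G belongs to the isoflavones and K to the flavonols, so that they differ in where the phenyl ring is attached and in a hydroxyl group that only K carries. Each group had 2 arrays, 16 in all, whereas the study's methods give 3 biological replicates. The labels name the replicates biological, but nothing ties them to separate mice or cultures, so the p-values measure the spread between these arrays, which may be partly technical. G and K alone were set against 0.05% DMSO and the mixtures against 0.1% DMSO, as the methods describe, while the labels give 0.05% DMSO for all treated cultures.

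Soluble hydrolases are made in the endoplasmic reticulum and receive a mannose 6-phosphate tag in the Golgi apparatus, where a phosphotransferase adds the phosphate in a covered form, an uncovering enzyme exposes it, and mannose 6-phosphate receptors carry the enzymes to the lysosome. Loss of single hydrolases or of the tag causes lysosomal storage diseases, in which the undegraded substrate fills the organelle. Many of their genes are known targets of TFEB and the other MiT transcription factors, which bind E-box-like elements close to the transcription start.

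The E-box core CACGTG was searched for near the start sites, because many of these genes are known to be regulated through elements of this kind. Promoter windows of 300 bases (250 before and 50 after the start) from RefSeq, build GRCm38.p6, were matched by symbol for 39 of the 44 members and gave 49 windows, since some genes have several starts, while Aga, Asah1, Ctsb, Ctsh and M6pr were not matched. CACGTG, which reads the same on both strands, was present in 13 of the 49 windows (26.5%) and in 7.15% of all 32851 windows of the same length. The longer forms that contain it were present as TCACGTGA in 7 member windows (14.3%, against 0.974% of all) and as GTCACGTG, searched on both strands, in 9 (18.4%, against 2.25% of all). Windows are not separate genes, since those of Gnptg overlap and hold the same core, which is counted in each. The 12 genes with the core were Arsa, Ctsa, Ctsd, Ctsf, Ctsl, Dpp7, Gaa, Gla, Gnptg, Lgmn, Nagpa and Sumf1, of which 7 changed in at least 1 of the 6 conditions described below and 5 did not. Of all 39 members with a window 18 changed and 21 did not, and a link between the core and the changes was not tested. Stretches upstream of the start are shown for 3 genes that rose in at least 4 conditions, for Arsa, which rose only with the mixtures, and for Nagpa, which fell, each 5′ to 3′ on the strand of the gene with the core in capitals.
Gla (chrX:134601169-134601255, - strand): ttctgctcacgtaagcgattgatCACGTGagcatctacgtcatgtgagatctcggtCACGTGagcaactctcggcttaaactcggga
Ctsf (chr19:4855061-4855116, + strand): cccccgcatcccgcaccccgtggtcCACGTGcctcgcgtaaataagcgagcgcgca
Ctsd (chr7:142388042-142388077, - strand): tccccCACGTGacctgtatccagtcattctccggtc
Ctsd (chr7:142387895-142387950, - strand): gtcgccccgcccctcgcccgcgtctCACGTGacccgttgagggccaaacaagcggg
Arsa (chr15:89477425-89477465, - strand): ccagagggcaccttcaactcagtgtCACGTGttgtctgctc
Nagpa (chr16:5204013-5204047, - strand): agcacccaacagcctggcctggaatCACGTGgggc
The first base of the core lay 227 and 194 bases before the start of Gla, 79 before that of Ctsf, 245 and 98 before that of Ctsd, 16 before that of Arsa and 10 before that of Nagpa. A further core of Nagpa, within the longer form GTCACGTG, began at position 6 downstream of its start and is not part of the stretch shown. Genes that rose and a gene that fell thus both held the core. The windows of Neu1, Fuca1 and Npc2, which rose in 5 or 6 conditions, held none of the 3 letter strings, which says only that these letters are not in these 300 bases.

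The deposited values are log2 signals, so that a difference of 1 between group means stands for a doubling. All 16 arrays entered 1 limma fit, and a gene is said to have risen or fallen where its p was under 0.05 after Benjamini-Hochberg adjustment across the 22206 clusters. Precision is limited by having 2 arrays per group, with a median standard error of 0.187 over clusters for a log2 difference from DMSO. The 95% intervals reached 0.402 to either side at the median over clusters. Within groups, the pairs of arrays had a Pearson's r across clusters of 0.9948 to 0.9972. Of 12 fibroblast markers 11 lay above the median signal of 5222 negative controls in every array (mean log2 signal 13.1 to 13.8), whereas none of the markers listed for macrophages, osteoclasts, keratinocytes, endothelial cells, adipocytes or muscle and 1 of the 4 for melanocytes did, and no marker of these other cells exceeded the negative controls' 95th percentile in any array. Neither Idua, the gene affected in MPS I, nor B2m or Gapdh, used as references, changed past the threshold in any condition. Of the 4 adipocyte markers, Adipoq, Plin1 and Lep lay below that median in every array, whereas Fabp4, a fatty acid-binding protein, moved with treatment, with log2 signals of 6.54 to 8.87 in the 12 treated arrays, against 9.64 to 9.81 in the 4 DMSO arrays. The part of Fabp4-expressing cells in the results was not tested. Single fibroblast markers differed between groups as well. With the 120 µM mixture S100a4 had 12.4 and 12.5, against 14.7 and 14.5 with 0.1% DMSO. Thy1 had 13.9 and 14.1, against 15.5 and 15.4, in the same groups. Dcn was higher there, with 15.9 and 16.0, against 15.5 and 15.8. A lower signal in a culture can mean fewer cells that express a gene or less RNA per cell, and these cannot be told apart here.

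Of the 44 genes, 40 lay above the negative control median in every array, and 31 to 35 per array lay above the 95th percentile. Ctsc, which activates serine proteases of immune cells, Ctss, the cathepsin of antigen-presenting cells, and Acp5, the tartrate-resistant phosphatase of osteoclasts and macrophages, were not well above background in any of the 16 arrays (log2 signals of 3.74 to 4.61, 4.59 to 5.27 and 3.74 to 4.57), and no fold change is given for them. Manba, the β-mannosidase, was above that median in 14 arrays.

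Genes of soluble lysosomal enzymes rose in every condition, among them the sialidase Neu1, the fucosidase Fuca1 and the aspartylglucosaminidase Aga, and only 2 of the 44 fell in any of them. Against other choices of DMSO control, Lgmn also fell with 120 µM G and Pla2g15 with the 120 µM mixture. With 60 µM G 11 genes rose and none fell, when 3.84% of all clusters rose and 4.48% fell. With 120 µM G 12 rose and none fell (7.94% and 7.80% of all clusters), with 60 µM K 6 rose and 1 fell (5.72% and 4.40%), and with 120 µM K 8 rose and 1 fell (8.98% and 8.00%). The 60 µM mixture had 14 that rose and 1 that fell (9.23% and 8.57% of all clusters), and the 120 µM mixture 11 that rose and 1 that fell (10.1% and 9.48%). The median log2 fold change of the 44 genes was 0.25 and 0.15 at 60 and 120 µM of G, 0.13 and 0.18 at 60 and 120 µM of K, and 0.27 and 0.20 with the 60 and 120 µM mixtures, while that of all clusters lay between -0.04 and 0.01. In all, 21 genes changed in at least 1 condition, 19 upward and 2 downward, and 5 rose in all 6. How many of all clusters did so was not counted, and the conditions share DMSO arrays, so these numbers only describe the list.

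These enzymes give brighter signals than most of the array, and brighter clusters passed the test more often. Of the 5504 clusters with a mean over the 16 arrays above the mean 95th percentile of the negative controls, 7.76% rose with 60 µM G, 15.1% with 120 µM G, 9.94% with 60 µM K, 16.4% with 120 µM K, 14.7% with the 60 µM mixture and 16.9% with the 120 µM mixture. Of the 33 members among them, 27.3% rose with 60 µM G, 30.3% with 120 µM G, 12.1% with 60 µM K, 18.2% with 120 µM K, 33.3% with the 60 µM mixture and 24.2% with the 120 µM mixture. The share of members that rose thus exceeded that of clusters above the same limit with G and the mixtures and was close to it with K, which describes these lists and is no test. Leaving out 1 array moved the number of changed genes by over 1.5 times in 3 conditions. With 60 µM G it was 3 without replicate 1 of 60 µM G or of 0.05% DMSO, with 60 µM K it was 4, 3 and 3 without K replicate 1, K replicate 2 and 0.05% DMSO replicate 1, and with the 60 µM mixture it was 8, 6, 9 and 9 without mixture replicates 1 and 2 and 0.1% DMSO replicates 1 and 2, while with 120 µM G it stayed at 10 to 12. A prior with an intensity trend gave more calls, with 13 and 17 genes at 60 and 120 µM of K and 19 with the 120 µM mixture. The shares of all clusters under this prior were not counted, so these numbers do not set the members apart.

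**Figure D1:**
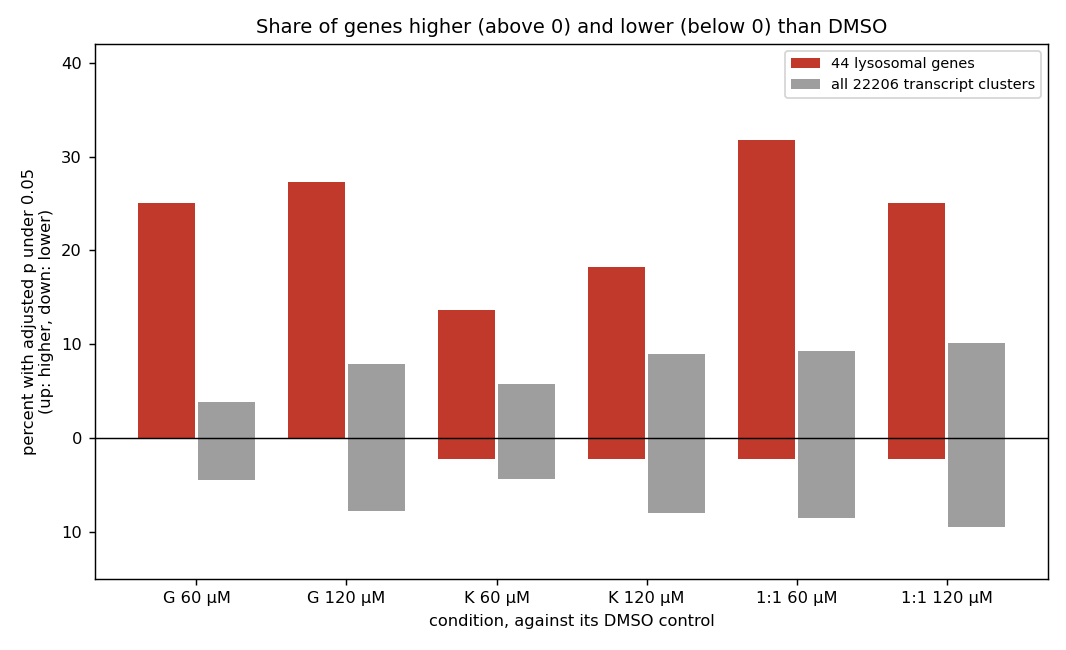
Share of the 44 lysosomal genes (red) and of all 22206 transcript clusters (grey) with an adjusted p under 0.05 in each condition against its DMSO control, in percent, with the share that rose drawn above 0 and the share that fell below it. The red bar above 0 is taller than the grey one in every condition, with 11 of 44 genes for 60 µM G and 14 of 44 for the 60 µM mixture.

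**Figure D2:**
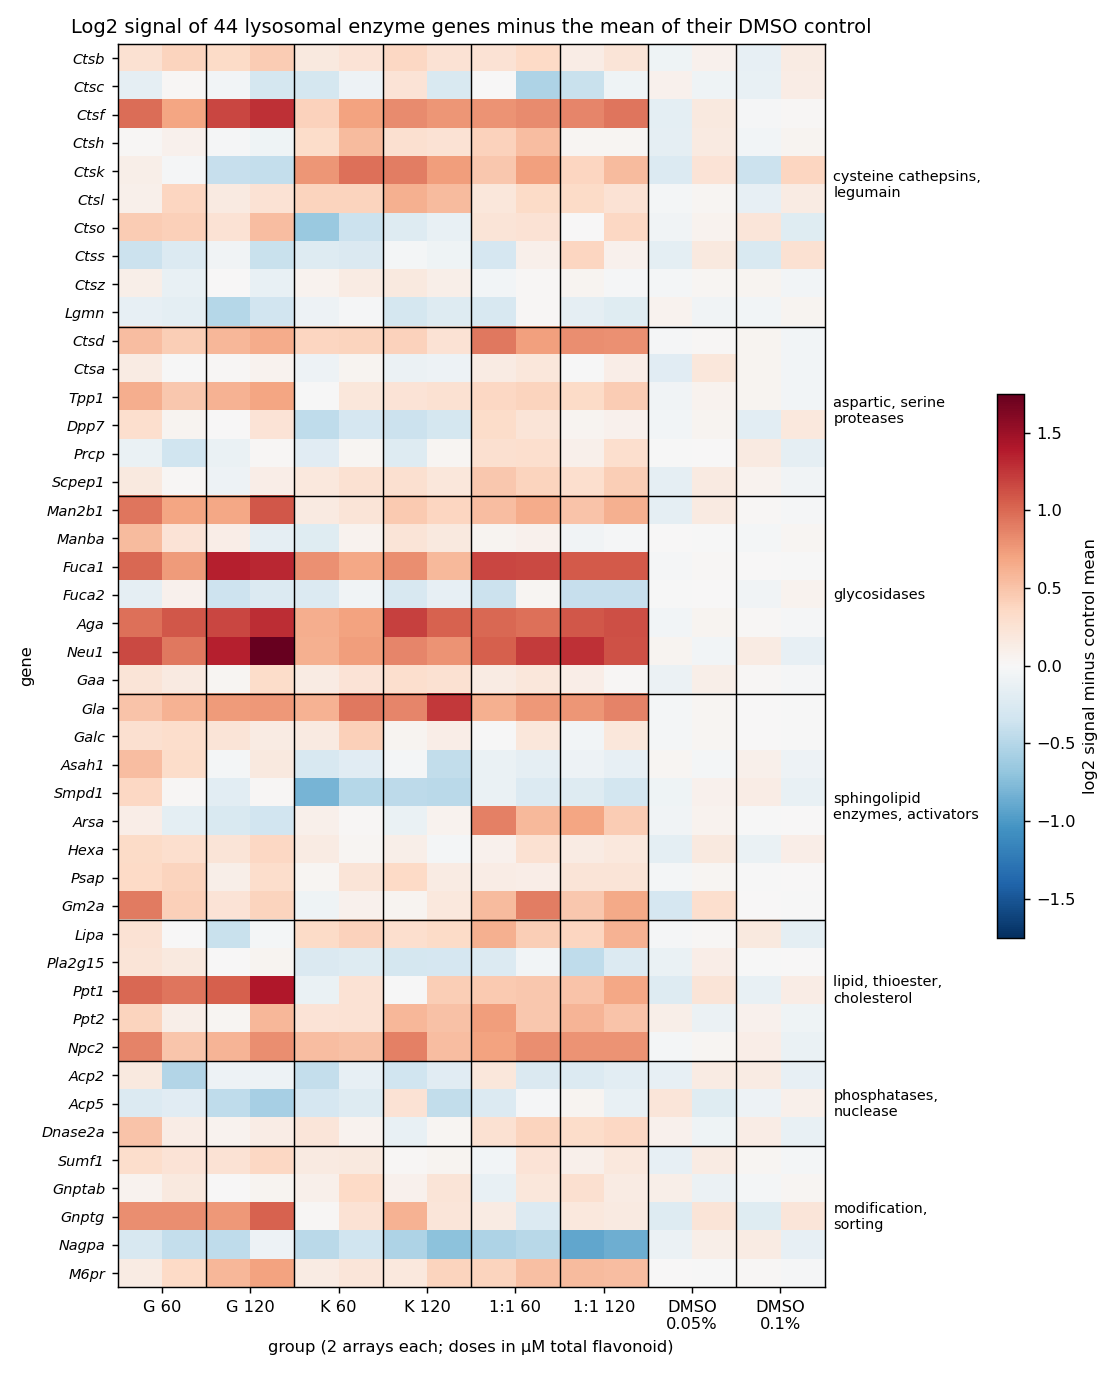
Log2 signal of each of the 44 genes in each of the 16 arrays (columns, 2 per group) minus the mean of the DMSO control of that group, with genes grouped by role. Neu1, Fuca1, Aga, Ctsf, Gla and Npc2 are red across all treated columns, and Nagpa is blue across them.

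Of the 7 glycosidases, which trim the sugar chains of glycoproteins or split glycogen, 4 rose with either dose of G and with either mixture and 3 with either dose of K, and none fell. Neu1, the sialidase that removes terminal sialic acid, had log2 signals of 10.59 and 10.34 with 60 µM G, 10.78 and 11.23 with 120 µM G, 10.05 and 10.15 with 60 µM K, 10.28 and 10.21 with 120 µM K, 10.18 and 10.37 with the 60 µM mixture, and 10.41 and 10.26 with the 120 µM mixture, against 9.47 and 9.38 with 0.05% DMSO, and 9.28 and 8.99 with 0.1% DMSO. All 12 treated arrays lay above the 4 DMSO arrays, and 120 µM G was the highest group. The fold change was 2.06 with 60 µM G, 2.99 with 120 µM G (log2 fold change 1.58 with a standard error of 0.17 and adjusted p = 2.33e-05), 1.60 and 1.77 at 60 and 120 µM of K, and 2.20 and 2.30 with the 60 and 120 µM mixtures. Its signal exceeded the negative controls' 95th percentile in only 2 arrays, so it was measured in the dim part of the scale. The rise with 60 µM K passed in none of the 4 fits that left out 1 of its arrays (K replicates 1 and 2, 0.05% DMSO replicates 1 and 2, adjusted p up to 0.126), and the other 5 held in each.

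Fuca1, the α-L-fucosidase that removes fucose, had log2 signals of 12.04 and 11.78 with 60 µM G, 12.39 and 12.36 with 120 µM G, 11.84 and 11.72 with 60 µM K, 11.85 and 11.60 with 120 µM K, 12.03 and 12.03 with the 60 µM mixture, and 11.93 and 11.94 with the 120 µM mixture, against 11.02 and 11.06 with 0.05% DMSO, and 10.87 and 10.86 with 0.1% DMSO. The treated and DMSO arrays did not overlap, with 120 µM G again the highest. Fuca1 rose 1.84-fold with 60 µM G, 2.53-fold with 120 µM G (log2 fold change 1.34 with a standard error of 0.14 and adjusted p = 1.53e-05), 1.67-fold and 1.61-fold at 60 and 120 µM of K, and 2.24-fold and 2.10-fold with the 60 and 120 µM mixtures. Aga, which cuts the bond between the sugar chain and asparagine, had log2 signals of 14.23 and 14.36 with 60 µM G, 14.44 and 14.57 with 120 µM G, 13.91 and 13.98 with 60 µM K, 14.47 and 14.31 with 120 µM K, 14.18 and 14.12 with the 60 µM mixture, and 14.26 and 14.29 with the 120 µM mixture, against 13.22 and 13.32 with 0.05% DMSO, and 13.19 and 13.14 with 0.1% DMSO. Its treated arrays also all lay above the DMSO arrays, with 60 µM K the lowest of the treated groups. The fold changes of Aga were 2.03 and 2.35 at 60 and 120 µM of G, 1.59 and 2.17 at 60 and 120 µM of K, and 1.98 and 2.16 with the 60 and 120 µM mixtures (adjusted p between 1.77e-05 and 0.00372). All 12 of these rises of Fuca1 and Aga held without each array in turn.

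Man2b1, the α-mannosidase, had log2 signals of 12.59 and 12.35 with 60 µM G, 12.33 and 12.74 with 120 µM G, 11.82 and 11.89 with 60 µM K, 12.11 and 12.03 with 120 µM K, 12.21 and 12.33 with the 60 µM mixture, and 12.17 and 12.30 with the 120 µM mixture, against 11.49 and 11.82 with 0.05% DMSO, and 11.69 and 11.67 with 0.1% DMSO. All G and mixture arrays lay above all DMSO arrays, whereas replicate 1 of 60 µM K was level with the higher 0.05% DMSO array. Man2b1 rose 1.75-fold and 1.84-fold at 60 and 120 µM of G, and 1.51-fold and 1.47-fold with the 60 and 120 µM mixtures. With 60 and 120 µM K the log2 fold changes were 0.20 and 0.41 (95% intervals -0.16 to 0.55 and 0.06 to 0.77) and did not pass. The rise with 120 µM G held without each array, the one with 60 µM G was lost without replicate 1 of G or of 0.05% DMSO (adjusted p up to 0.0865), and those with the 60 and 120 µM mixtures were lost without any 1 of their 4 arrays (up to 0.136 and 0.165). Gaa, which splits glycogen, Manba and Fuca2, a secreted fucosidase, passed in no comparison, with log2 fold changes between 0.07 and 0.28, -0.08 and 0.40, and -0.40 and -0.04.

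**Figure D3:**
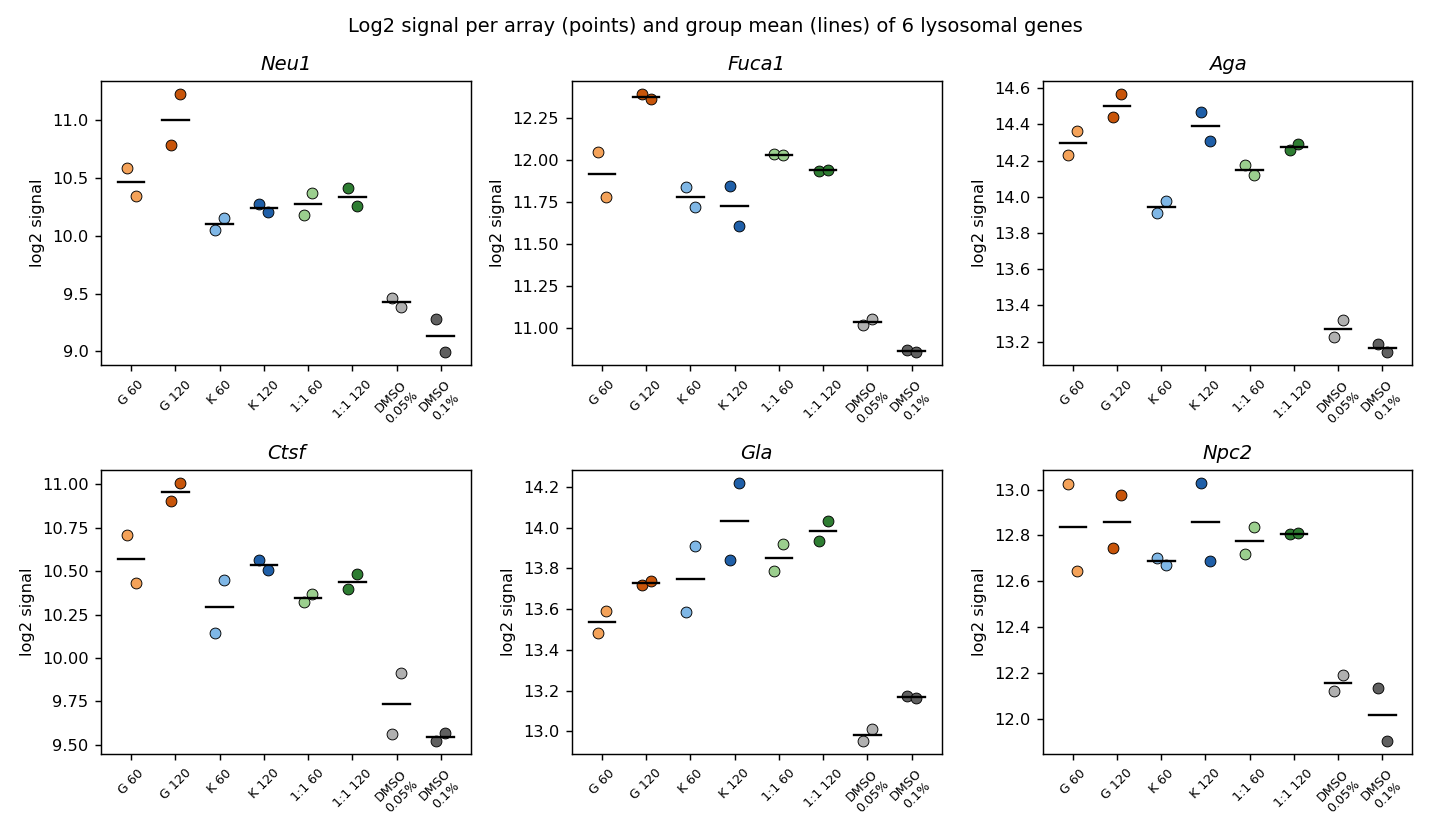
Log2 signal of Neu1, Fuca1, Aga, Ctsf, Gla and Npc2 in every array (points, 2 per group) with the group mean (black line), on axes that do not start at 0. In each panel all 12 treated arrays lie above the 4 DMSO arrays.

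Of the 8 sphingolipid genes, only Gla rose in all 6 conditions. Gla, the α-galactosidase A that removes galactose from globotriaosylceramide, had log2 signals of 13.48 and 13.59 with 60 µM G, 13.72 and 13.74 with 120 µM G, 13.58 and 13.91 with 60 µM K, 13.84 and 14.22 with 120 µM K, 13.79 and 13.92 with the 60 µM mixture, and 13.93 and 14.03 with the 120 µM mixture, against 12.95 and 13.01 with 0.05% DMSO, and 13.17 and 13.16 with 0.1% DMSO. Its treated arrays lay above all DMSO arrays, and 120 µM K and the 120 µM mixture were the highest groups. The fold changes of Gla were 1.47 and 1.68 at 60 and 120 µM of G, 1.70 and 2.07 at 60 and 120 µM of K (log2 fold change 1.05 with a standard error of 0.16 and adjusted p = 0.000298 for 120 µM), and 1.61 and 1.76 with the 60 and 120 µM mixtures. The rise with 60 µM G was lost without any 1 of its 4 arrays (adjusted p up to 0.183) and against 0.1% DMSO (0.171), and those with 60 µM K and the 60 µM mixture were lost without replicate 2 of the treated group (0.0794 and 0.0675).

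Smpd1, the acid sphingomyelinase, was lower with K. Its log2 signals were 11.90 and 11.56 with 60 µM G, 11.35 and 11.56 with 120 µM G, 10.72 and 11.03 with 60 µM K, 11.08 and 11.06 with 120 µM K, 11.34 and 11.22 with the 60 µM mixture, and 11.23 and 11.14 with the 120 µM mixture, against 11.46 and 11.61 with 0.05% DMSO, and 11.58 and 11.33 with 0.1% DMSO. Both arrays of either K dose lay below both 0.05% DMSO arrays. Smpd1 fell with 60 µM K (fold change 0.633, log2 fold change -0.66 with a standard error of 0.16 and adjusted p = 0.0194), a call lost without K replicate 1 or 0.05% DMSO replicates 1 or 2 (adjusted p up to 0.191), and its log2 fold change with 120 µM K was -0.47 (95% interval -0.82 to -0.12, adjusted p = 0.067). Against all 4 DMSO arrays Smpd1 fell with 120 µM K as well (log2 fold change -0.43, adjusted p = 0.0405). Arsa, the arylsulfatase that acts on sulfatide, had log2 signals of 11.42 and 11.13 with 60 µM G, 11.04 and 10.97 with 120 µM G, 11.39 and 11.32 with 60 µM K, 11.19 and 11.37 with 120 µM K, 11.62 and 11.31 with the 60 µM mixture, and 11.43 and 11.17 with the 120 µM mixture, against 11.24 and 11.36 with 0.05% DMSO, and 10.72 and 10.75 with 0.1% DMSO. The 0.1% DMSO arrays were the lowest of all 16, and the mixture arrays overlapped with those of 0.05% DMSO. Arsa rose 1.66-fold and 1.48-fold with the 60 and 120 µM mixtures against 0.1% DMSO, but its log2 fold change against 0.05% DMSO was 0.16 with the 60 µM mixture (adjusted p = 0.597) and -5e-06 with the 120 µM mixture. These rises thus depended on the control, and against 0.1% DMSO Arsa would also have passed with 60 µM G and at 60 and 120 µM of K (log2 fold changes of 0.54, 0.62 and 0.54). Against 0.1% DMSO they were also lost without mixture replicate 1 at 60 µM (0.0753) and without mixture replicate 1 or 0.1% DMSO replicates 1 or 2 at 120 µM (up to 0.171).

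Gm2a, the activator that presents ganglioside GM2 to hexosaminidase, had log2 signals of 12.57 and 12.07 with 60 µM G, 11.90 and 12.05 with 120 µM G, 11.58 and 11.74 with 60 µM K, 11.70 and 11.85 with 120 µM K, 11.91 and 12.25 with the 60 µM mixture, and 11.82 and 12.02 with the 120 µM mixture, against 11.36 and 11.95 with 0.05% DMSO, and 11.35 and 11.35 with 0.1% DMSO. The group mean was highest with 60 µM G, and replicate 2 of 0.05% DMSO lay within the range of the treated arrays. Gm2a rose 1.66-fold with the 60 µM mixture (log2 fold change 0.73 with a standard error of 0.21 and adjusted p = 0.0272), while with 60 µM G its log2 fold change of 0.66 did not pass against 0.05% DMSO (adjusted p = 0.0675) but did against 0.1% DMSO (0.97, adjusted p = 0.00991) and all 4 DMSO arrays (0.0108). The call with the mixture was lost without its replicate 2 or 0.1% DMSO replicates 1 or 2 (adjusted p up to 0.195) and against 0.05% DMSO (0.235). Asah1, the acid ceramidase, passed in none of the 6 conditions (log2 fold changes of -0.24 to 0.43), though with 60 µM G it rose against all 4 DMSO arrays (0.44, adjusted p = 0.0433). Hexa, the α subunit of hexosaminidase, Galc, the galactocerebrosidase, and Psap, the precursor of the saposins that present lipids to these enzymes, did not pass either, and their log2 fold changes lay between 0.04 and 0.32, 0.07 and 0.29, and 0.13 and 0.36.

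Of the 10 cysteine cathepsins and legumain, 1 rose with either dose of G, 2 with 60 µM K, 3 with 120 µM K, 2 with the 60 µM mixture and 1 with the 120 µM mixture, and none fell. For the 120 µM doses of G and the mixture, 1 of 10 is close to the share of all clusters that rose (7.94% and 10.1%) and below that of the brighter ones (15.1% and 16.9%). Ctsf, the cathepsin F of broad tissue expression, had log2 signals of 10.71 and 10.43 with 60 µM G, 10.90 and 11.01 with 120 µM G, 10.15 and 10.45 with 60 µM K, 10.57 and 10.51 with 120 µM K, 10.33 and 10.37 with the 60 µM mixture, and 10.40 and 10.48 with the 120 µM mixture, against 9.56 and 9.91 with 0.05% DMSO, and 9.52 and 9.57 with 0.1% DMSO. All treated arrays lay above all DMSO arrays, and 120 µM G was highest. The fold changes of Ctsf were 1.78 and 2.33 at 60 and 120 µM of G (log2 fold change 1.22 with a standard error of 0.16 and adjusted p = 0.000111 for 120 µM), 1.47 and 1.74 at 60 and 120 µM of K, and 1.74 and 1.86 with the 60 and 120 µM mixtures. Its signal exceeded the negative controls' 95th percentile in 5 arrays, and the rises with 60 µM G and 60 µM K were lost without 0.05% DMSO replicate 1, G replicate 1 or K replicate 2 (adjusted p up to 0.065 with G and 0.277 with K).

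Ctsk, the collagen-degrading cathepsin best known from osteoclasts and also made by fibroblasts, rose with K and not with G. Its log2 signals were 14.76 and 14.64 with 60 µM G, 14.24 and 14.23 with 120 µM G, 15.42 and 15.61 with 60 µM K, 15.55 and 15.39 with 120 µM K, 15.04 and 15.27 with the 60 µM mixture, and 14.94 and 15.11 with the 120 µM mixture, against 14.41 and 14.89 with 0.05% DMSO, and 14.19 and 14.94 with 0.1% DMSO. The 4 K arrays were the highest and lay above every other array, and the 2 arrays of 120 µM G lay at the low end of the DMSO range. Ctsk rose 1.82-fold with 60 µM K and 1.76-fold with 120 µM K (adjusted p = 0.0216 and 0.0195), and its log2 fold change was 0.04 and -0.42 at 60 and 120 µM of G (95% intervals -0.43 to 0.52 and -0.89 to 0.06) and 0.59 and 0.46 with the 60 and 120 µM mixtures, none of which passed. Both rises were lost without K replicates 1 or 2 or 0.05% DMSO replicate 1 (adjusted p up to 0.191 and 0.181). The osteoclast markers Calcr, Oscar, Ocstamp, Dcstamp, Mmp9 and Tnfrsf11a were not above the negative control median in all arrays and not above its 95th percentile in any (mean log2 signal per array 4.60 to 4.94).

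Ctsl, a broad endopeptidase, rose 1.51-fold with 120 µM K, with log2 signals of 15.86 and 15.78 with 120 µM K, against 15.20 and 15.27 with 0.05% DMSO (log2 fold change 0.59 with a standard error of 0.15 and adjusted p = 0.0116), a call lost without K replicate 1 or 0.05% DMSO replicate 1 (up to 0.0721). Ctsh, an aminopeptidase, had log2 signals of 11.22 and 11.26 with 60 µM G, 11.17 and 11.11 with 120 µM G, 11.52 and 11.75 with 60 µM K, 11.47 and 11.45 with 120 µM K, 11.77 and 11.91 with the 60 µM mixture, and 11.39 and 11.39 with the 120 µM mixture, against 11.04 and 11.35 with 0.05% DMSO, and 11.31 and 11.41 with 0.1% DMSO. The arrays of the 60 µM mixture were the highest of all 16, followed by those of 60 µM K. Ctsh rose 1.39-fold with the 60 µM mixture (log2 fold change 0.48 with a standard error of 0.14 and adjusted p = 0.0333), a call lost without any 1 of its 4 arrays (adjusted p up to 0.186). Ctsb, a broad endopeptidase, Ctsz, a carboxypeptidase, and Lgmn, the asparaginyl endopeptidase that also matures other cathepsins, passed in no comparison, with log2 fold changes of 0.18 to 0.39, -0.06 to 0.14 and -0.42 to -0.05. With 120 µM G Lgmn did fall against 0.1% DMSO (-0.45, adjusted p = 0.0344) and against all 4 DMSO arrays (-0.43, adjusted p = 0.0157). Ctso, a cathepsin of little-known substrates, passed in none of the 6 conditions (-0.51 to 0.43). Against all 4 DMSO arrays Ctso rose at 60 and 120 µM of G (adjusted p = 0.0467 and 0.0427).

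Among the 6 aspartic and serine proteases Ctsd and Tpp1 rose. Ctsd, the main aspartic protease of the lysosome, had log2 signals of 16.35 and 16.24 with 60 µM G, 16.39 and 16.47 with 120 µM G, 16.18 and 16.20 with 60 µM K, 16.22 and 16.06 with 120 µM K, 16.48 and 16.28 with the 60 µM mixture, and 16.38 and 16.37 with the 120 µM mixture, against 15.79 and 15.83 with 0.05% DMSO, and 15.61 and 15.52 with 0.1% DMSO. All treated arrays lay above all DMSO arrays. Ctsd rose 1.40-fold and 1.53-fold at 60 and 120 µM of G and 1.76-fold and 1.75-fold with the 60 and 120 µM mixtures (adjusted p = 0.000737 and 0.000615), and its log2 fold change at 60 and 120 µM of K was 0.38 and 0.33 (95% intervals 0.10 to 0.66 and 0.05 to 0.61, not passed). Against 0.1% DMSO Ctsd passed at 60 and 120 µM of K as well, with log2 fold changes of 0.63 and 0.58 (adjusted p = 0.0056 and 0.00631), as it did against all 4 DMSO arrays (0.0124 and 0.0164). The rise with 60 µM G was lost without any 1 of its 4 arrays (up to 0.158). Tpp1, a tripeptidyl peptidase whose loss causes a neuronal ceroid lipofuscinosis, rose 1.47-fold and 1.56-fold at 60 and 120 µM of G, with log2 signals of 16.60 and 16.44 with 60 µM G, and 16.57 and 16.65 with 120 µM G, against 15.91 and 16.02 with 0.05% DMSO. All 4 G arrays lay above these. The call at 60 µM was lost without G replicate 1 or 0.05% DMSO replicates 1 or 2 (up to 0.119). Ctsa, which protects Neu1 and β-galactosidase in a complex, Dpp7, Prcp and Scpep1, which cut dipeptides or single residues from peptide ends, passed in no comparison, and their log2 fold changes lay between -0.37 and 0.43. Neu1 and Ctsa, partners in that complex, thus had log2 fold changes of 1.58 and 0.04 with 120 µM G.

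Of the 5 genes of lipid, thioester and cholesterol handling, Npc2 and Ppt1 moved most. Npc2, which carries cholesterol out of the lysosome together with the membrane protein NPC1, had log2 signals of 13.02 and 12.65 with 60 µM G, 12.75 and 12.97 with 120 µM G, 12.70 and 12.67 with 60 µM K, 13.03 and 12.69 with 120 µM K, 12.72 and 12.84 with the 60 µM mixture, and 12.81 and 12.81 with the 120 µM mixture, against 12.12 and 12.19 with 0.05% DMSO, and 12.13 and 11.90 with 0.1% DMSO. All treated arrays lay above all DMSO arrays, and the treated groups overlapped with each other. The fold changes of Npc2 were 1.60 and 1.63 at 60 and 120 µM of G, 1.45 and 1.63 at 60 and 120 µM of K, and 1.69 and 1.73 with the 60 and 120 µM mixtures, and the one with 60 µM K did not pass (adjusted p = 0.0591), though it did against 0.1% DMSO (log2 fold change 0.67, adjusted p = 0.0158) and all 4 DMSO arrays (0.0103). Of the 5 rises, that with the 120 µM mixture held without each array, and the others were lost without replicate 1 of 0.05% DMSO (G and K), replicate 2 of 0.05% DMSO (60 µM G) or replicate 2 of 0.1% DMSO (60 µM mixture), and without 1 of the treated arrays (replicate 1 of 60 µM G and 120 µM K, replicate 2 of 120 µM G and the 60 µM mixture), with adjusted p up to 0.164.

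Ppt1, the thioesterase that removes palmitate from proteins, rose with G and not with K. Its log2 signals were 12.64 and 12.57 with 60 µM G, 12.68 and 13.04 with 120 µM G, 11.53 and 11.88 with 60 µM K, 11.64 and 12.07 with 120 µM K, 12.36 and 12.38 with the 60 µM mixture, and 12.39 and 12.58 with the 120 µM mixture, against 11.41 and 11.86 with 0.05% DMSO, and 11.77 and 12.03 with 0.1% DMSO. All G and mixture arrays lay above all K and DMSO arrays, and the K arrays overlapped with those of DMSO. Ppt1 rose 1.96-fold with 60 µM G (log2 fold change 0.97 with a standard error of 0.20 and adjusted p = 0.00919) and 2.33-fold with 120 µM G (log2 fold change 1.22 with a standard error of 0.20 and adjusted p = 0.000798). Its log2 fold changes at 60 and 120 µM of K were 0.07 and 0.22 (95% intervals -0.36 to 0.50 and -0.22 to 0.65), and those with the 60 and 120 µM mixtures were 0.47 and 0.59 (adjusted p = 0.128 and 0.0562). The missing calls with the mixtures depended on the control, since against 0.05% DMSO the log2 fold changes were 0.73 and 0.85 and passed (adjusted p = 0.028 and 0.01), as they did against all 4 DMSO arrays (0.0306 and 0.00993). The rise at 60 µM was lost without replicate 1 of G or of 0.05% DMSO (up to 0.097), and that at 120 µM held.

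Ppt2, a related thioesterase, had log2 signals of 10.27 and 9.97 with 60 µM G, 9.90 and 10.46 with 120 µM G, 10.11 and 10.13 with 60 µM K, 10.45 and 10.39 with 120 µM K, 10.40 and 10.14 with the 60 µM mixture, and 10.26 and 10.17 with the 120 µM mixture, against 9.97 and 9.77 with 0.05% DMSO, and 9.74 and 9.60 with 0.1% DMSO. The group mean was highest with 120 µM K, and the mixture arrays lay above all DMSO arrays. The Ppt2 signal exceeded the negative controls' 95th percentile in no array. Ppt2 rose 1.52-fold and 1.46-fold with the 60 and 120 µM mixtures (adjusted p = 0.0349 and 0.0497), calls lost against 0.05% DMSO (0.19 and 0.25) and without any 1 of the 4 arrays (up to 0.217 and 0.208). With 120 µM K its log2 fold change was 0.55 and did not pass (adjusted p = 0.0539), but it passed against 0.1% DMSO (0.75, adjusted p = 0.0101) and all 4 DMSO arrays (0.00856). Lipa, the acid lipase of cholesteryl esters and triglycerides, had log2 signals of 13.75 and 13.51 with 60 µM G, 13.11 and 13.45 with 120 µM G, 13.83 and 13.89 with 60 µM K, 13.78 and 13.83 with 120 µM K, 13.92 and 13.73 with the 60 µM mixture, and 13.67 and 13.90 with the 120 µM mixture, against 13.47 and 13.52 with 0.05% DMSO, and 13.47 and 13.12 with 0.1% DMSO. Its arrays were higher than all DMSO arrays with either dose of K and either mixture, and the group mean was highest with 60 µM K. Lipa rose 1.44-fold with the 60 µM mixture (log2 fold change 0.53 with a standard error of 0.17 and adjusted p = 0.0422), a call lost against 0.05% DMSO (0.252), against all 4 DMSO arrays and without either mixture array or 0.1% DMSO replicate 2 (up to 0.28). At 60 and 120 µM of K its log2 fold changes were 0.36 and 0.31 and did not pass (adjusted p = 0.214 and 0.248), whereas against 0.1% DMSO both did (0.0366 and 0.0471). Pla2g15, the lysosomal phospholipase, passed in no comparison (log2 fold changes of -0.35 to 0.20). With the 120 µM mixture it did fall against all 4 DMSO arrays (log2 fold change -0.38, adjusted p = 0.0321). The lysosomal acid phosphatase Acp2 and the acid DNase Dnase2a passed in no comparison (-0.28 to -0.03 and -0.05 to 0.34).

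The 5 genes of modification and sorting did not move together. Gnptg, the γ subunit of the phosphotransferase that starts the mannose 6-phosphate tag, rose 1.76-fold and 1.87-fold at 60 and 120 µM of G, with log2 signals of 11.14 and 11.13 with 60 µM G, and 11.08 and 11.36 with 120 µM G, against 10.09 and 10.55 with 0.05% DMSO. The G arrays lay above all of these. These rises were lost against 0.1% DMSO, whose arrays read 10.43 and 10.86 (adjusted p = 0.181 and 0.0691), and without 0.05% DMSO replicate 1, either 60 µM G array or 120 µM G replicate 2 (adjusted p up to 0.205 and 0.104). Gnptab, which encodes the catalytic and the other subunit of the same enzyme, had log2 fold changes of 0.03 to 0.22 and passed in no comparison, as did Sumf1, which activates sulfatases such as Arsa (0.03 to 0.31).

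Nagpa, the uncovering enzyme that completes the tag, was lower in all treated groups by mean. Its log2 signals were 12.54 and 12.40 with 60 µM G, 12.37 and 12.72 with 120 µM G, 12.34 and 12.47 with 60 µM K, 12.27 and 12.10 with 120 µM K, 12.35 and 12.42 with the 60 µM mixture, and 11.99 and 12.05 with the 120 µM mixture, against 12.72 and 12.92 with 0.05% DMSO, and 13.04 and 12.75 with 0.1% DMSO. The 120 µM mixture was the lowest group, and apart from replicate 2 of 120 µM G, at the level of the lowest DMSO array, all treated arrays lay below all DMSO arrays. Nagpa fell with 120 µM K (fold change 0.645, adjusted p = 0.0129), with the 60 µM mixture (0.701, adjusted p = 0.0395) and with the 120 µM mixture (0.544, log2 fold change -0.88 with a standard error of 0.16 and adjusted p = 0.00147). With 60 µM K Nagpa fell only against all 4 DMSO arrays (log2 fold change -0.45, adjusted p = 0.0371). The fall with the 120 µM mixture held without each array, that with 120 µM K was lost without K replicate 2 or 0.05% DMSO replicate 2 (up to 0.11), and that with the 60 µM mixture without either mixture array or 0.1% DMSO replicate 1 (up to 0.214) and against 0.05% DMSO (0.0979). M6pr, the cation-dependent mannose 6-phosphate receptor, had log2 signals of 13.81 and 14.02 with 60 µM G, 14.24 and 14.37 with 120 µM G, 13.80 and 13.87 with 60 µM K, 13.84 and 14.05 with 120 µM K, 14.03 and 14.17 with the 60 µM mixture, and 14.19 and 14.18 with the 120 µM mixture, against 13.67 and 13.65 with 0.05% DMSO, and 13.66 and 13.62 with 0.1% DMSO. All treated arrays lay above all DMSO arrays. M6pr rose 1.56-fold with 120 µM G, a call that held without each array, and 1.38-fold and 1.46-fold with the 60 and 120 µM mixtures, which was lost without any 1 of the 4 arrays at 60 µM (up to 0.179) and without either mixture array or 0.1% DMSO replicate 2 at 120 µM (up to 0.0627).

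**Figure D4:**
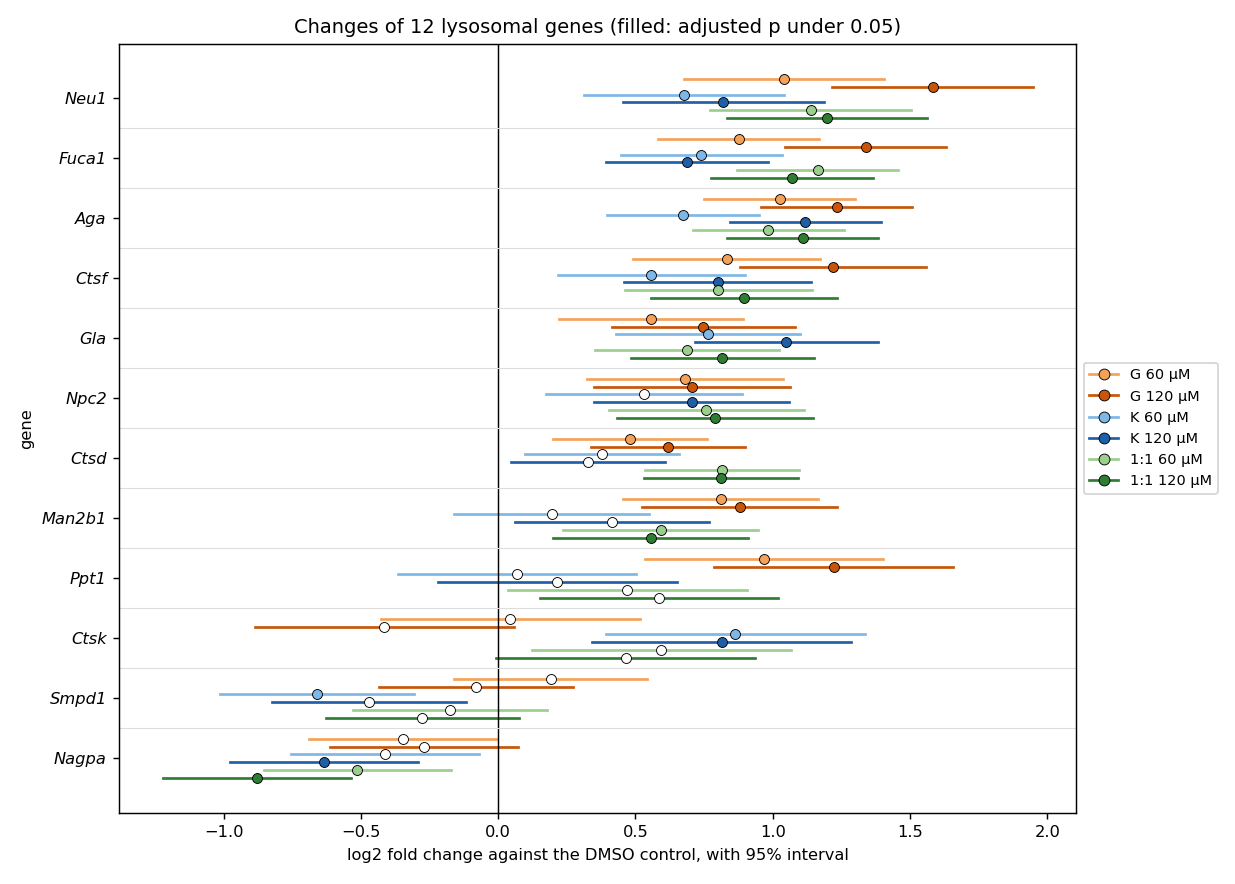
Log2 fold change against the DMSO control with its 95% interval (lines) for 12 genes in the 6 conditions, with filled points where the adjusted p was under 0.05. Neu1, Fuca1, Aga, Ctsf and Gla are filled in all 6 conditions, Ppt1 with G alone, Ctsk with K alone, and Nagpa lies to the left of 0 throughout.

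To compare the flavonol with the isoflavone, K was set against G at the same dose, and 8 of the 44 genes differed at 60 or 120 µM. At 60 µM 1 gene was higher with K (4.78% of all clusters) and 5 were lower (3.39%), and at 120 µM 1 was higher (5.21%) and 3 were lower (4.57%). Of the 33 brighter members 3.03% were higher and 12.1% lower at 60 µM, against 7.18% and 5.69% of the 5504 brighter clusters. At 120 µM it was 3.03% and 6.06% of these members, against 9.21% and 8.23% of these clusters. The members thus did not differ more often at 120 µM than clusters above the same limit. The gene that was higher was Ctsk at both doses, by a log2 difference of 0.82 at 60 µM (95% interval 0.35 to 1.29, adjusted p = 0.0359) and by 1.23 at 120 µM (0.76 to 1.70, adjusted p = 0.00241), where K had 15.55 and 15.39 and G 14.24 and 14.23. Ppt1 was lower with K at both doses, with log2 differences of -0.90 (-1.33 to -0.47, adjusted p = 0.0149) and -1.01 (-1.44 to -0.57, adjusted p = 0.00535). For both genes no K array overlapped with a G array of the same dose.

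At 60 µM K also had lower Ctso, Smpd1, Asah1 and Man2b1. Ctso had log2 signals of 9.15 and 9.42 with 60 µM K, against 10.24 and 10.21 with 60 µM G (log2 difference -0.94, 95% interval -1.32 to -0.57, adjusted p = 0.00492), and those of 0.05% DMSO, 9.74 and 9.85, lay between the groups. The Ctso signal exceeded the negative controls' 95th percentile in no array. Smpd1 differed by -0.85 (-1.20 to -0.50) and Man2b1 by -0.62 (-0.97 to -0.26). Asah1 had 15.48 and 15.55 with 60 µM K, against 16.30 and 16.08 with 60 µM G (log2 difference -0.67, -1.01 to -0.34), and its 0.05% DMSO arrays read 15.79 and 15.73. At 120 µM K had lower Neu1 (log2 difference -0.76, -1.13 to -0.40) and Fuca1 (-0.65, -0.94 to -0.36), 2 genes that rose with both compounds. At 60 µM these differed by -0.36 (-0.73 to -0.00) and -0.14 (-0.43 to 0.16) and did not pass.

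For Aga, Gla and Ctsf, which rose in all 6 conditions, and for Npc2, which rose in 5, no difference between K and G passed, and the intervals set the limits. At 120 µM they were -0.39 to 0.16 for Aga, -0.03 to 0.64 for Gla, -0.76 to -0.08 for Ctsf and -0.36 to 0.36 for Npc2, on the log2 scale. The calls between K and G were sensitive to single arrays. Their number at 60 µM was 1, 3, 0 and 3 without G replicates 1 and 2 and K replicates 1 and 2, and at 120 µM 2 without G replicate 2, and of the 10 calls only Ctsk at 120 µM held without each array. A prior with an intensity trend gave 12 differing genes at either dose, and the share of all clusters under it was not counted.

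**Figure D5:**
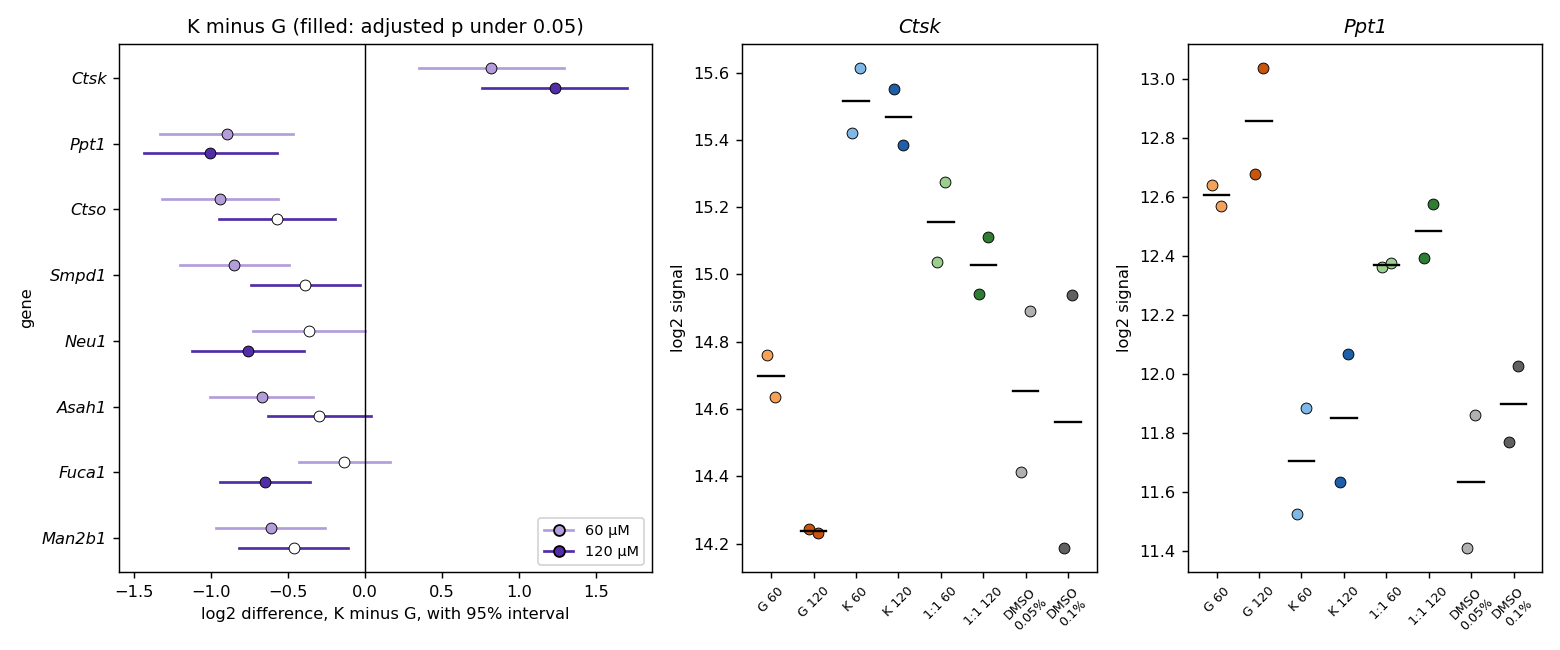
Left, log2 difference of K minus G with its 95% interval at 60 µM (light) and 120 µM (dark) for the 8 genes that passed the test at either dose, filled where the adjusted p was under 0.05. Middle and right, log2 signal of Ctsk and Ppt1 in each array (points) with group means (lines), on axes that do not start at 0, where K is highest for Ctsk and G for Ppt1.

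The doses of a compound could not be told apart by the test in any of the 44 genes. From 60 to 120 µM 3.54% of all clusters passed for G, 0.270% for K and 0 for the mixture, and at an unadjusted p under 0.05 6, 1 and 2 of the 44 genes did. Closest for G was Fuca1, with a log2 difference of 0.46 between 120 and 60 µM (95% interval 0.17 to 0.76, adjusted p = 0.0851), then Neu1 with 0.54 (0.18 to 0.91, adjusted p = 0.103). With an intensity trend in the prior, or among brighter clusters only, 3 genes passed between the doses of G, where the share of all clusters was not counted. Closest for K was Aga with 0.45 (0.17 to 0.72, adjusted p = 0.223).

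The mixtures were set against each compound at the same total concentration, at which they hold less of each. Against 60 µM G, the 60 µM mixture had higher Ctsh (log2 difference 0.60, 95% interval 0.30 to 0.91, adjusted p = 0.0219) and lower Asah1 (-0.58, -0.91 to -0.25, adjusted p = 0.0388), when 4.18% of all clusters were higher and 3.17% lower. Against 120 µM G, the 120 µM mixture had higher Ctsk (0.79, 0.32 to 1.26, adjusted p = 0.043) and lower Neu1 (-0.67, -1.04 to -0.31, adjusted p = 0.0271), when 4.53% were higher and 2.80% lower. Without any 1 of the 4 arrays both calls at 60 µM were lost, and at 120 µM both were lost without G replicate 2 or either mixture replicate, and Ctsk also without G replicate 1. No gene of the 44 passed against 60 or 120 µM K (0.0901% and 0.684% of all clusters), and 5 and 2 had an unadjusted p under 0.05, led by Ctso and Ppt1 at 60 µM and Ppt1 at 120 µM, all higher in the mixture. The comparisons with G and with K also differ in solvent, if the mixtures held 0.1% DMSO as the methods say, and that part cannot be told apart.

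The 120 µM mixture, which holds the single doses of 60 µM, was also set against the added log2 responses to G and K at that dose, and no gene of the 44 differed past the test (0.0405% of all clusters did, and of the 44 only Aga had an unadjusted p under 0.05). Its log2 difference from the sum was -0.59 (95% interval -1.14 to -0.04, adjusted p = 0.464), and that of Fuca1 was -0.54 (-1.13 to 0.04). The median over the 44 genes was -0.22, against -0.02 over all clusters, and with intervals this wide departures of moderate size were not detectable. Between 0.1% and 0.05% DMSO none of the 44 passed (0.00450% of all clusters), and only Arsa had an unadjusted p under 0.05 (log2 difference -0.57, -0.90 to -0.23, adjusted p = 0.291). The conditions of G and K share their DMSO arrays, as do both mixtures, so that the rises of a gene across conditions are not independent of each other.

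The study's own criterion for arrays, a fold change above 1.3 or below 0.7 with no test, was met by 15 genes with 60 µM G, 14 with 120 µM G, 11 with 60 µM K, 12 with 120 µM K, 17 with the 60 µM mixture and 17 with the 120 µM mixture, and all but 1 each at 60 and 120 µM of K and the 120 µM mixture were higher. Over all clusters it was met by 20.3%, 24.0%, 19.2%, 25.3%, 27.2% and 28.5% in the same order.

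Among other genes of the pathway, 33 further soluble enzymes of the lysosome were on the array, of which 6 and 7 rose at 60 and 120 µM of G, 4 and 6 at 60 and 120 µM of K, and 7 and 8 with the 60 and 120 µM mixtures, while 2 fell with either dose of G, 2 and 4 at 60 and 120 µM of K and none with the mixtures. Of all clusters 3.84% and 7.94% rose at these doses of G, 5.72% and 8.98% at those of K, and 9.23% and 10.1% with the mixtures. The shares that fell were 4.48% and 7.80%, 4.40% and 8.00%, and 8.57% and 9.48%. Hyal1, a hyaluronidase, rose in all 6 conditions, by 4.65-fold with the 120 µM mixture at the most and 2.24-fold with 60 µM K at the least. Creg1, a lysosomal glycoprotein, rose 1.63-fold and 1.67-fold at 60 and 120 µM of G, 3.67-fold and 4.08-fold at 60 and 120 µM of K, and 4.72-fold and 4.44-fold with the 60 and 120 µM mixtures. Rnaset2a, a ribonuclease with a near-identical copy, Rnaset2b, whose signals the probes may not separate, rose 1.84-fold with 60 µM G and 3.07-fold with the 120 µM mixture, its lowest and highest values. Lyz2, named after its values were seen because it belongs to this list and to the macrophage markers, fell with either dose of K, with mean log2 signals of 6.70 and 6.43 at 60 and 120 µM of K, against 7.91 with 0.05% DMSO, and with 120 µM K it was not well above background. The falls counted in this list at 60 µM of G and of K include Plbd1, whose groups were all at or below the negative control median.

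Of 19 genes of sorting to the lysosome, 1 to 3 rose and 1 or 2 fell per condition. With either mixture 1 of the 19 rose, when 9.23% (60 µM) and 10.1% (120 µM) of all clusters did, so this list did not stand out there. Sort1, the receptor sortilin that carries some enzymes without the mannose 6-phosphate tag, rose in all 6 conditions, by 1.77-fold with 60 µM G at the least and 3.57-fold with the 120 µM mixture at the most, and Ap1s1, a subunit of the adaptor that loads enzymes at the Golgi apparatus, fell in all 6, with fold changes of 0.504 with the 120 µM mixture to 0.702 with 60 µM K. Cln8, an exit factor of hydrolases from the endoplasmic reticulum, rose 1.59-fold with 120 µM G, 1.67-fold with 60 µM K and 1.93-fold with 120 µM K. Of 5 cystatins, which inhibit cysteine cathepsins, only Cstb passed, with fold changes of 0.618 and 0.536 in the 60 and 120 µM mixtures. Among 8 genes of the lysosomal membrane and the MiT family, the calcium channel Mcoln1 rose in all 6 conditions (1.99-fold with 60 µM K to 2.75-fold with 120 µM G), Mitf rose 2.01-fold and 2.35-fold at 60 and 120 µM of K and 2.50-fold and 2.81-fold with the 60 and 120 µM mixtures but did not pass with G, and Tfec fell with 120 µM G (fold change 0.468) and rose in the 4 conditions that contained K. The study itself reports Tfec, there named Tcfec, as unchanged at 120 µM of G, K and the mixture, by array and by quantitative PCR. The cause of this difference was not tested.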

How the data were processed

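Expression was measured on Clariom S mouse arrays, 2 per group in 8 groups (16 in all). The authors normalized the arrays with RMA in Expression Console and Transcriptome Analysis Console, named without versions in the submitters' notes, and deposited log2 signals for 28846 probe sets. The genome build of the array annotation is not given in the sources used here. Control probe sets (6640, of which 5222 negative controls) were set aside, and 22206 annotated transcript clusters were tested. The values of the per-array and series tables differed by at most 5e-05.

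One limma fit (limma 3.58.1, R 4.3.3) held 8 group means over all 16 arrays, with 17 contrasts and moderated tests (8 residual and 5.81 prior degrees of freedom), two-sided, with Benjamini-Hochberg adjustment over all clusters in each contrast and a threshold of 0.05. With 2 arrays per group the spread is pooled over groups, and where an array was left out the lone array of its group was assumed to vary like the other groups. Groups with both arrays at or below their own array's negative control median were treated as not well above background. Values in every array were given for the 3 genes that rose or fell most among those that passed in each condition and in each other comparison, and for genes that passed in all 6 conditions, with some further members that passed, and each pathway list contributed up to 3 genes with the largest change among those that passed. The members and gene lists were chosen with earlier results of these data known. The limma procedure was tested on simulated data with known changes.

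Alternatives were the series table's values, centred and quantile-normalized arrays, brighter clusters only, an intensity trend or robust prior, a replicate block, other DMSO controls, a fit on the compared groups only, the study's fold change criterion and leaving out each array. RefSeq promoter windows (GRCm38.p6) were searched for exact letter strings. Array counts, not sequencing depth, set the precision.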

Additional observations from a re-analysis of the deposited data

Results flagged for a closer look

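A direct test of K minus G at the same dose passed for 8 genes in 10 comparisons, which was what drew attention to them, and the log2 differences below are K minus G. At 60 µM they were 0.82 for the collagenolytic cathepsin Ctsk, -0.94 for Ctso, -0.62 for the mannosidase Man2b1, -0.67 for the ceramidase Asah1, -0.85 for the sphingomyelinase Smpd1 and -0.90 for the thioesterase Ppt1. At 120 µM they were 1.23 for Ctsk, -0.65 for Fuca1, -0.76 for Neu1 and -1.01 for Ppt1. Ctsk and Ppt1 were the genes that passed at both doses, in opposite directions, and in both cases 1 compound alone passed against DMSO. Neu1 and Fuca1 rose with both compounds and differed in size. Groups of 2 arrays are too small for a test of single outlying arrays.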

How the results depend on the processing

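Calls of single genes kept their direction under every alternative that was run, except Arsa with the 120 µM mixture, whose log2 fold change was -5e-06 against 0.05% DMSO. The number of changed genes depended on how the spread was estimated. An intensity trend in the prior gave 13 genes with 60 µM K, 17 with 120 µM K, 19 with the 120 µM mixture, 3 for 120 against 60 µM G, 1 for 120 against 60 µM K, 12 for K against G at 60 µM and 12 at 120 µM, 4 and 8 for the 60 and 120 µM mixtures against G, and 1 for the 120 µM mixture against K. Testing only the brighter clusters gave 12 genes with 60 µM K, 19 with the 120 µM mixture, 3 for 120 against 60 µM G, 14 and 12 for K against G at 60 and 120 µM, and 7 for the 120 µM mixture against G. A fit on the compared groups alone, which has fewer arrays to estimate the spread, gave 4 with 60 µM G, 9 with the 60 µM mixture, 2 for K against G at 120 µM, and 0 and 1 for the 60 and 120 µM mixtures against G. With 60 µM K the count was 11 against 0.1% DMSO, 12 against all 4 DMSO arrays and 11 by the fold change criterion, and centring the arrays left 1 for the 60 µM mixture against G. The control moved single calls, with 3 lost and 11 gained against 0.1% DMSO throughout, 7 lost and 2 gained against 0.05% DMSO throughout, and 4 lost and 17 gained against all 4 DMSO arrays. Of 80 calls, 34 held without each array in turn. Apart from the fold change criterion, the shares of all clusters under these alternatives were not counted. The counts therefore do not compare the members with the rest of the array. The cause of these changes was not tested.

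Without each array in turn the counts were 3 to 8 (60 µM G), 10 to 12 (120 µM G), 3 to 5 (60 µM K), 6 to 8 (120 µM K), 6 to 9 (60 µM mixture), 8 to 10 (120 µM mixture), 0 to 3 and 2 to 3 (K against G at 60 and 120 µM), 0 and 0 to 2 (60 and 120 µM mixtures against G), and 0 in the other comparisons.

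With the replicate block the counts were 11, 12, 7, 9, 14 and 12 in the 6 conditions and equal elsewhere, but 2 calls were lost and 1 was gained, the lost ones being Lipa with the 60 µM mixture (adjusted p = 0.0514) and Ppt2 with the 120 µM mixture (0.0568). The deviations of arrays of the same number from their group means correlated between -0.136 and 0.142 (median 0.0137 over 28 pairs of groups). These correlations cannot show whether such arrays share a batch. The negative control median was higher in replicate 1 than in replicate 2 in every group except 60 µM G. The alternative for genes with several clusters was not run, as each member has 1. Dim genes, such as Ctso, Ppt2, Neu1 and Ctsf, limit what the arrays can resolve.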
